A study of Mus musculus with 6 samples.

Results

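The genes described here are 10 transcription factor genes of the lung epithelial lineage and the SOX family, taken by name from the 23284 genes in each count file: Nkx2-1, Foxa1, Foxa2, Gata6, Hopx, Sox2, Sox4, Sox9, Sox11 and Etv5. They were measured by RNA-seq of poly(A) RNA in preSC cells, a mouse line that the labels call a precursor of small cell lung cancer (SCLC). The 3 shCrebbp libraries each carried 1 lentiviral pLKO.1 hairpin against Crebbp, numbered 1, 2 and 5. The 3 control libraries carried the empty pLKO.1 vector (shEmpty and shEmpty-2) or a non-silencing hairpin (shNS). Every library thus carried a pLKO.1 vector. The labels do not say whether libraries came from separate cultures, and p-values therefore cover only library-to-library spread, which among shCrebbp libraries includes differences between hairpins.

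NKX2-1 is the homeodomain factor that marks lung and thyroid endoderm. FOXA1 and FOXA2 are forkhead pioneer factors that open chromatin in foregut epithelium, and GATA6 is a zinc finger factor of endoderm. In the developing mouse lung SOX2 marks the future airways, while SOX9 and the FGF-induced factor ETV5 mark the growing distal tips. HOPX is a small homeodomain protein of alveolar type 1 cells, and SOX4 and SOX11 are related factors of progenitors and immature neurons. Crebbp encodes CBP, a histone acetyltransferase that many transcription factors recruit.

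Reads counted in genes ranged from 13622020 to 14651158 in shCrebbp libraries and from 13687770 to 19804949 in controls. Values are in CPM, read counts scaled to library size after TMM normalization, so 1 CPM stood for 13.6 to 19.6 reads. Crebbp itself stood at 46.2, 58.3 and 48.9 CPM with hairpins 1, 2 and 5, against 66.2, 69.6 and 69.4 CPM in shEmpty, shEmpty-2 and shNS, below every control and missing the threshold (edgeR log2 fold change -0.42 ± 0.10 SE, adjusted p = 0.0999). DESeq2 called it lower (adjusted p = 0.0163), as did edgeR when hairpin 2 was left out (adjusted p = 0.0478), within a range of 0.000217 to 0.409 over all alternatives. Neuroendocrine marker levels ranged widely and not all were alike between groups. Ddc, an enzyme gene of amine synthesis, stood at 1015 ± 126 CPM in shCrebbp and 981 ± 41.6 CPM in controls (SD, n = 3 each). Calca, a neuropeptide gene, stood at 632, 831 and 1161 CPM with hairpins 1, 2 and 5, against 2010, 1807 and 1592 CPM in the controls (edgeR adjusted p = 0.0558 pooled). Chga and Resp18 lay below all controls with every hairpin, as did 11% of tested genes. Chgb and Ncam1 lay above them, as did 11.4%, but Chgb with hairpin 1 nearly equalled shEmpty-2 (254.4 and 253.9 CPM). Chga, Resp18, Chgb and Ncam1 all missed the threshold pooled (edgeR adjusted p = 0.244, 0.247, 0.341 and 0.116). Neurod1 averaged 1.41 CPM in shCrebbp and 1.15 CPM in controls. The basal cell factor gene Trp63 and the secretory genes Scgb3a2 and Sftpd had 0 reads in all libraries. Some markers of other lung cells were present. Aldh1a1 (club) averaged 96.9 CPM in shCrebbp and 127 CPM in controls. Emp2 (alveolar type 1) averaged 76 and 101 CPM, and Rsph1 (ciliated) 8.49 and 16 CPM. Each missed the threshold pooled (edgeR adjusted p = 0.0974, 0.171 and 0.153). Of the 6 club, 8 alveolar type 1 and 6 ciliated markers, 5, 3 and 4 were under 1 CPM on average. The 6 leukocyte markers summed to 4.29 to 5.66 CPM in shCrebbp and 3.47 to 5.99 CPM in controls, and the 6 endothelial markers to 0.885 to 1.64 and 1.39 to 1.52 CPM. The 6 fibroblast markers summed to 12.9 to 63.2 CPM in shCrebbp and 37.2 to 45.2 CPM in controls, nearly all of it Dcn. Dcn, a matrix proteoglycan gene, stood at 11.2, 32 and 61.7 CPM with hairpins 1, 2 and 5, against 43.4, 38.5 and 35.5 CPM in the controls, an order shared with Foxa1, Sox2 and Etv5 among the hairpins. The part of these markers in the results was not tested.

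Of the 10 genes, 9 passed the filter on low counts, and none of the 9 passed an adjusted p of 0.05 in shCrebbp against control. The quasi-likelihood test of edgeR over 13390 genes called 1.25% of them (0.978% lower and 0.276% higher). At an unadjusted p under 0.05 in edgeR there were 2 of the 9, Sox2 and Etv5, against 2203 of the 13390 genes. DESeq2 and limma-voom also called 0 of the 9, against 5.45% and 1.19% of all genes. So did edgeR with RLE or upper quartile normalization, no filter, a filter of 1 CPM, non-robust estimation or thinned reads, where 1.22%, 1.37%, 1.3%, 1.32%, 1.28% and 1.28% of all genes were called. The median log2 fold change of the 9 was -0.03, against 0.01 over all tested genes, with 4 positive and 5 negative. The group comparison covered a split between the hairpin libraries. Each hairpin has 1 library, so a split between hairpins and one between single libraries cannot be told apart. With both hairpins 1 and 2, Foxa1, Sox2 and Etv5 lay below all controls and Sox4 and Sox11 above them, 3 and 2 of the 9 genes, against 17.9% and 18.3% of all tested genes. Hairpin 5 stood near the controls for Sox2, Sox11 and Etv5, above them for Foxa1 and below them for Sox4.

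Leaving out 1 library changed the count only where hairpin 5 was removed. Without hairpin 5, edgeR called 1 of the 9 (Sox2, lower) against 2.87% of all genes, and DESeq2 called 4 (Foxa1, Sox2 and Etv5 lower, Sox11 higher) against 8.02%. Without hairpin 1 or hairpin 2 the count was 0, against 2.72% and 0.749% of all genes in edgeR and 6.48% and 4.62% in DESeq2. Without shEmpty, shEmpty-2 or shNS it was also 0, against 0%, 0% and 0.354% in edgeR and 1.86%, 1.62% and 3.54% in DESeq2.

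**Figure D1:**
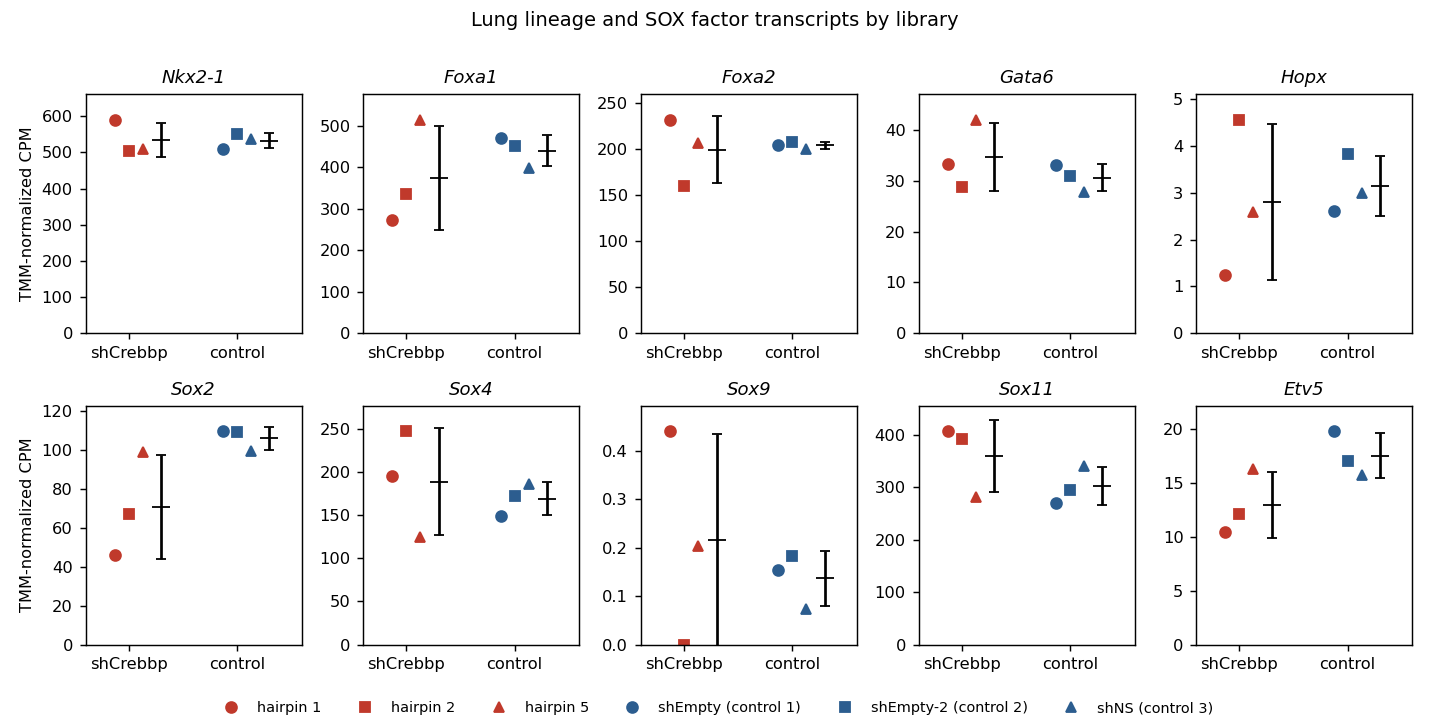
TMM-normalized CPM (y axis, from 0, 1 scale per gene) of the 10 genes in the 3 shCrebbp libraries (red, left) and the 3 control libraries (blue, right), with the symbol giving the hairpin or vector. Black bars are the group mean ± SD. Foxa1 and Sox2 spread widely among hairpins (273 to 514 and 45.9 to 98.9 CPM), while Nkx2-1 stayed between 505 and 590 CPM in all 6 libraries.

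The lung identity factor Nkx2-1 had the highest group means of the 10, with a narrow range over the 6 libraries. It stood at 589.8, 505 and 508 CPM with hairpins 1, 2 and 5, against 509.9, 551 and 537 CPM in shEmpty, shEmpty-2 and shNS. The 2 groups overlapped, and the group means were 534 ± 48.2 and 533 ± 20.9 CPM (SD, n = 3 each). The log2 fold change was 0.00 with a 95% interval of -0.20 to 0.20 (edgeR adjusted p = 0.990). Divided by the merged exon length of 2842 bases, its level averaged 188 CPM per kb in shCrebbp and 187 CPM per kb in controls, at the 98.6th percentile of the 12107 tested genes with a known length. No single hairpin moved it past the threshold (adjusted p = 0.224, 0.531 and 0.688 for hairpins 1, 2 and 5).

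The forkhead pair differed in how it varied. Foxa1 stood at 273, 336 and 514 CPM with hairpins 1, 2 and 5, against 470.2, 450.4 and 399 CPM in shEmpty, shEmpty-2 and shNS. Hairpins 1 and 2 lay below all 3 controls and hairpin 5 lay above all 3, so the pooled log2 fold change of -0.23 ± 0.21 (SE, edgeR adjusted p = 0.644, 95% interval -0.71 to 0.24) lay between hairpins that stood on opposite sides of the controls. Foxa2 stood at 232, 160.3 and 207 CPM with hairpins 1, 2 and 5, against 204, 208 and 200 CPM in the controls. Only hairpin 2 was well below the controls here, and hairpin 1 was the highest library. The pooled log2 fold change of Foxa2 was -0.03 ± 0.13 (SE, edgeR adjusted p = 0.943).

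Within a library the ratio of the 2 forkhead genes does not depend on library scaling. Hairpins 1, 2 and 5 gave a log2 Foxa1 minus log2 Foxa2 of 0.24, 1.06 and 1.31, and the controls gave 1.20, 1.11 and 1.0. Hairpin 1 alone stood apart, with Foxa1 only slightly above Foxa2. The group means differed by -0.23 (exact permutation test, two-sided, p = 0.8, n = 3 each, where 0.1 is the smallest p possible), and without hairpin 1 the difference was 0.08.

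Sox2, the airway factor, had the largest absolute log2 fold change of the 9 genes. It stood at 45.9, 66.9 and 98.9 CPM with hairpins 1, 2 and 5, against 109.7, 109.4 and 99.3 CPM in shEmpty, shEmpty-2 and shNS. The groups did not overlap, but hairpin 5 and shNS were nearly equal. Groups did not overlap in 22.4% of tested genes, 11% with shCrebbp below. The group means were 70.6 ± 26.7 and 106 ± 5.96 CPM (SD, n = 3 each). Sox2 was thus 1.5-fold lower on the fitted scale, at a log2 value of -0.59 ± 0.23 (SE, edgeR adjusted p = 0.261, 95% interval -1.12 to -0.05). Without hairpin 5 it fell by 0.92 on the log2 scale (edgeR adjusted p = 0.0409), and over all alternatives the adjusted p ranged from 1.93e-05 to 0.596. Sox2 lies within the long noncoding gene Sox2ot on the same strand, which had 7, 25 and 24 reads with hairpins 1, 2 and 5, against 56, 45 and 38 reads in the controls. Reads that both genes share cannot be apportioned, and the part of Sox2ot in the result was not tested.

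The SOXC genes Sox4 and Sox11 were both abundant. Sox11 stood at 407, 393 and 281 CPM with hairpins 1, 2 and 5, against 269, 296 and 341 CPM in the controls. Hairpins 1 and 2 lay above all controls, and hairpin 5 lay within their range. Its log2 fold change was 0.26 ± 0.15 (SE, edgeR adjusted p = 0.456, 95% interval -0.09 to 0.60). Sox4 stood at 194, 247 and 124 CPM with hairpins 1, 2 and 5, against 148, 172 and 186 CPM in the controls, so that hairpin 5 was the lowest and hairpin 2 the highest of all 6 libraries. Its log2 fold change was 0.16 ± 0.22 (SE, edgeR adjusted p = 0.790, 95% interval -0.35 to 0.67). Hairpins 1, 2 and 5 gave a log2 Sox4 minus log2 Sox11 of -1.07, -0.67 and -1.18, and the controls gave -0.86, -0.78 and -0.87. The means differed by -0.13 (exact permutation test, two-sided, p = 0.4, n = 3 each, where 0.1 is the smallest p possible).

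The distal lung genes were at lower levels. Etv5, an ETS factor induced by FGF signalling, stood at 10.4, 12.1 and 16.3 CPM with hairpins 1, 2 and 5, against 19.8, 17.1 and 15.8 CPM in shEmpty, shEmpty-2 and shNS. Hairpins 1 and 2 were below every control, and hairpin 5 was between shNS and shEmpty-2. Its log2 fold change was -0.44 ± 0.19 (SE, edgeR adjusted p = 0.293, 95% interval -0.87 to -0.01). Gata6 stood at 33.4, 28.7 and 42 CPM with hairpins 1, 2 and 5, against 33.1, 31 and 27.9 CPM in the controls, with only hairpin 5 clearly above the control range (edgeR log2 fold change 0.18 ± 0.15, adjusted p = 0.619). Hopx was near the lower limit of the test at 17, 64 and 38 reads with hairpins 1, 2 and 5, against 51, 63 and 41 reads in the controls. That is 1.25, 4.56 and 2.59 CPM against 2.61, 3.84 and 2.99 CPM, and its 95% interval of log2 fold change ran from -1.15 to 0.82 (edgeR adjusted p = 0.904).

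Sox9, the other distal tip factor, did not pass the filter. It had 6, 0 and 3 reads with hairpins 1, 2 and 5, against 3, 3 and 1 reads in the controls. A count of 0 with hairpin 2 allows up to 0.214 CPM (3 reads, counting error only), and no fold is given because both groups stood near that limit. These cells thus held Nkx2-1, Foxa1, Foxa2 and Sox2 transcripts at high levels, Hopx at a low level and Sox9 close to 0, so the lung endoderm name fits part of the set.

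Per unit of length, the order in controls was Nkx2-1 at 187 ± 7.34, Foxa1 at 132 ± 11.1, Foxa2 at 86 ± 1.73 and Sox2 at 51.6 ± 2.91 CPM per kb (SD, n = 3). Sox11 and Sox4 followed at 36.3 ± 4.34 and 35.2 ± 3.98 CPM per kb, then Gata6 at 4.71, Etv5 at 4.28, Hopx at 2.07 and Sox9 at 0.033 CPM per kb. In the shCrebbp means the order was the same except that Sox11 (43.3 ± 8.29) and Sox4 (39.3 ± 12.9) stood above Sox2 (34.3 ± 12.9 CPM per kb). Hairpin 5 did not share that exception, with Sox2 at 48 CPM per kb above Sox11 at 33.8 and Sox4 at 25.8. With hairpin 1 Foxa2, at 97.7 CPM per kb, stood above Foxa1 at 82.1. Within controls the ranges of Sox11 and Sox4 and of Gata6 and Etv5 overlapped, and the other neighbours stood apart. Within shCrebbp the ranges of Foxa1 and Foxa2, of Sox11, Sox4 and Sox2, and of Etv5 and Hopx overlapped. Lengths are of the GRCm38 annotation, while the counts used mm9. Sox2, Sox4 and Sox11 have 1 exon each in that annotation.

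Each hairpin was next set against the 3 controls in 1 fit with 4 groups, a comparison added after seeing the spread among hairpins. The fit takes the spread from the controls and assumes that a single hairpin library varies like them, so each p compares that library with the controls. In the library with hairpin 1, 4 of the 9 genes were called lower and 1 higher, against 17.9% of all tested genes called (9.32% lower and 8.61% higher). With hairpin 2, 3 were lower and 1 higher, against 17.5% of all genes (9.03% lower and 8.48% higher). With hairpin 5, 0 of 9 were called against 2.75% of all genes (1.88% lower and 0.866% higher), and DESeq2 also called 0 (2.2% of all genes). Gata6 and Sox4 had log2 fold changes of 0.45 and -0.44 with that hairpin.

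Sox2 fell with hairpin 1 (log2 fold change -1.21 ± 0.10 SE, a 2.31-fold difference, edgeR adjusted p = 0.000586) and with hairpin 2 (-0.67 ± 0.10, adjusted p = 0.00320). Hairpin 5 left it at -0.10 ± 0.09 (adjusted p = 0.603). Foxa1 fell with hairpin 1 (-0.69 ± 0.11, adjusted p = 0.00420) and with hairpin 2 (-0.39 ± 0.10, adjusted p = 0.0342), and its value with hairpin 5 was 0.22 ± 0.10 (adjusted p = 0.265). The remaining calls were each made with 1 hairpin. With hairpin 1, Etv5 fell (-0.76 ± 0.18, adjusted p = 0.0237), Hopx fell (-1.32 ± 0.39, adjusted p = 0.0481) and Sox11 rose (0.43 ± 0.12, adjusted p = 0.0388). With hairpin 2, Foxa2 fell (-0.35 ± 0.08, adjusted p = 0.0232) and Sox4 rose (0.55 ± 0.12, adjusted p = 0.0163).

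These counts depended on the control libraries. Without shEmpty, without shEmpty-2 and without shNS, edgeR called 5, 2 and 6 of the 9 genes with hairpin 1, against 28.8%, 6.79% and 31.1% of all genes. The same left-out controls gave 5, 1 and 6 with hairpin 2, against 25%, 6.87% and 33.7%. With hairpin 5 they gave 3, 0 and 2, against 12.6%, 0.369% and 14.3%. RLE normalization left the counts at 5, 4 and 0 for hairpins 1, 2 and 5 (17.8%, 17.3% and 2.65% of all genes), and DESeq2 called 3 with hairpin 1 and 5 with hairpin 2 (9.78% and 9.91%). Sox2 was called lower with hairpins 1 and 2 in each of these fits. Foxa1 with hairpin 1 was called in each of them too. Without shEmpty-2 the other calls were lost, with adjusted p of 0.0759 for Etv5, 0.171 for Hopx and 0.145 for Sox11 with hairpin 1, and 0.139 for Foxa1, 0.159 for Foxa2 and 0.0563 for Sox4 with hairpin 2. DESeq2 did not call Etv5 and Hopx with hairpin 1 (adjusted p = 0.0788 and 0.215) and called Sox11 with hairpin 2 (adjusted p = 0.0484).

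**Figure D2:**
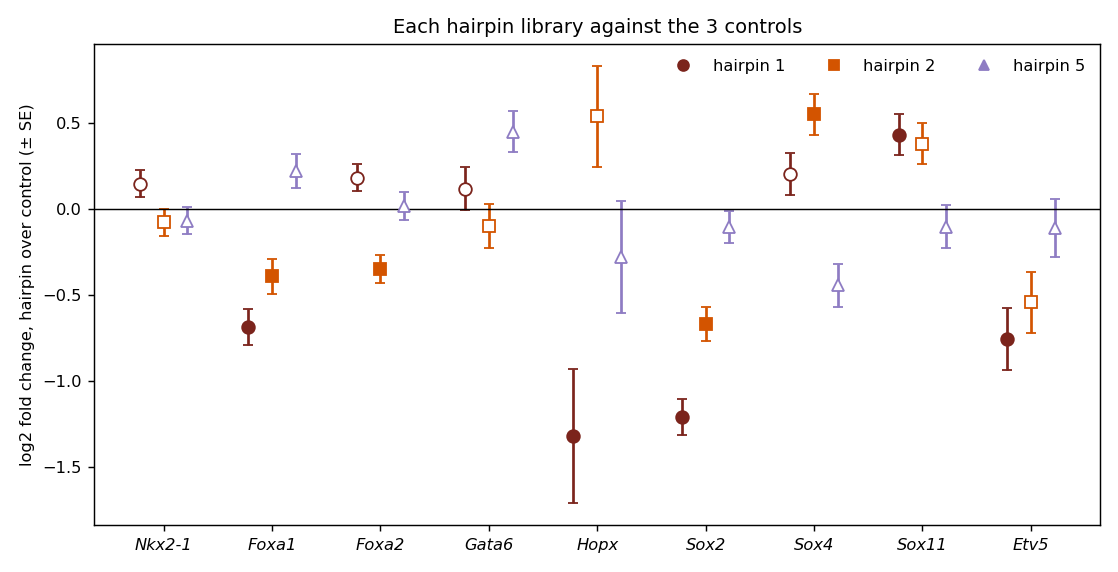
Log2 fold change over the 3 controls (y axis, error bars are SE) for the 9 tested genes with hairpin 1 (circles), hairpin 2 (squares) and hairpin 5 (triangles). Filled symbols have an adjusted p under 0.05 and open ones do not. Sox2 lies at -1.21, -0.67 and -0.10, and none of the hairpin 5 symbols is filled.

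The libraries of the 3 hairpins were compared with each other in the same fit. Each hairpin has 1 library and the spread comes from the controls alone, so a difference between hairpins and one between single libraries cannot be told apart, and no other setting was run for these comparisons. Over the 3 libraries, 4 of the 9 genes differed (edgeR, adjusted p = 0.00436 for Sox2, 0.00846 for Foxa1, 0.0138 for Sox4 and 0.0246 for Foxa2), against 14% of all tested genes. Sox2 was lower with hairpin 1 than with hairpin 5 (log2 difference -1.11 ± 0.12 SE, adjusted p = 0.00369), lower with hairpin 2 than with hairpin 5 (-0.56 ± 0.12, adjusted p = 0.0430) and lower with hairpin 1 than with hairpin 2 (-0.54 ± 0.12, adjusted p = 0.0246). Foxa1 was lower with hairpin 1 than with hairpin 5 (-0.91 ± 0.12, adjusted p = 0.00759) and with hairpin 2 than with hairpin 5 (-0.61 ± 0.12, adjusted p = 0.0413). Sox4 was higher with hairpin 2 than with hairpin 5 by 0.99 ± 0.15 (adjusted p = 0.0231) and with hairpin 1 than with hairpin 5 by 0.65 ± 0.15 (adjusted p = 0.0425). Foxa2 was higher with hairpin 1 than with hairpin 2 by 0.53 ± 0.10 (adjusted p = 0.0137). The background of these 3 comparisons was 14.6% of genes between hairpins 1 and 2, 6.5% between 1 and 5, and 2.98% between 2 and 5.

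Remaining Crebbp was 46.2, 58.3 and 48.9 CPM with hairpins 1, 2 and 5. Its edgeR log2 fold change over the controls was -0.57, -0.23 and -0.48, so it fell least with hairpin 2. Between hairpins the log2 difference was -0.34 for 1 against 2, -0.08 for 1 against 5 and 0.25 for 2 against 5. No difference between hairpins passed the threshold, which with 1 library each does not show equal knockdown. The totals of counted reads had the same order as Foxa1, Sox2 and Etv5 among the hairpin libraries (13622020, 13937299 and 14651158 for hairpins 1, 2 and 5). The control totals also had the order of these genes (19804949, 16446925 and 13687770 for shEmpty, shEmpty-2 and shNS). With every library thinned to 13622020 reads, Foxa1 stood at 272, 335 and 513 CPM with hairpins 1, 2 and 5. Sox2 then stood at 45.7, 67.0 and 99.3 CPM, and Etv5 at 10.4, 12.1 and 16.7 CPM. Thinning keeps the expected CPM of each gene, so these values could not have shown an effect of depth. The part of depth in these results was not tested.

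Across the 6 libraries Foxa1, Sox2 and Etv5 varied together, and Sox11 varied against them. Sox2 and Etv5 had a Pearson r of log2 CPM of 0.961, Foxa1 and Sox2 of 0.933 and Foxa1 and Etv5 of 0.919. Sox11 ran against all 3, with r of -0.951 to Foxa1, -0.945 to Etv5 and -0.881 to Sox2, and with Sox4 (0.841). These values describe 6 libraries, 3 of which share the control condition, and 36 pairs were looked at. The same opposition stood among the controls, where Foxa1 and Etv5 were highest in shEmpty and lowest in shNS, and Sox4 and Sox11 were lowest in shEmpty and highest in shNS. Foxa1 and Foxa2 had an r of -0.007, though 6 libraries are too few to call them unrelated.

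**Figure D3:**
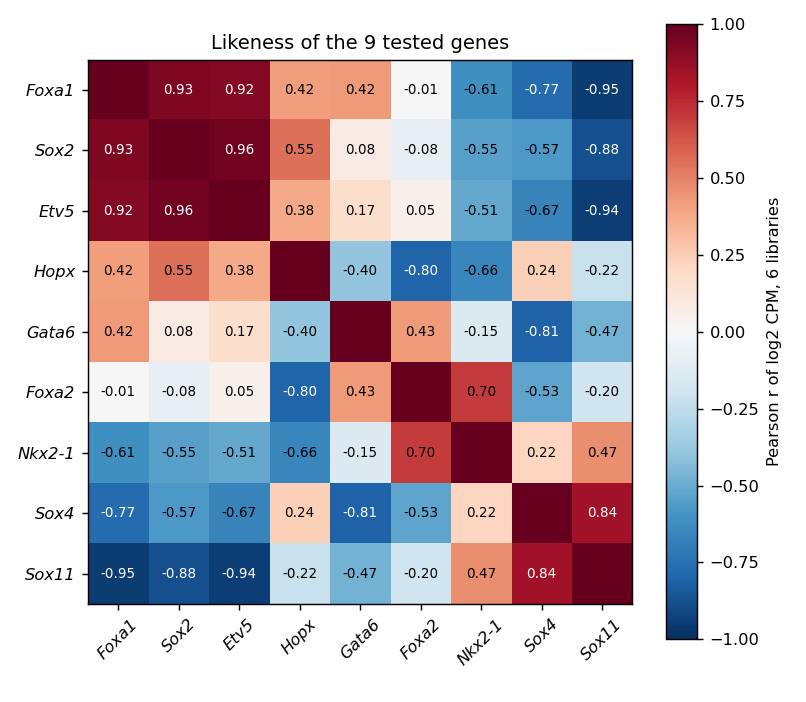
Pearson r of log2 CPM over the 6 libraries for each of the 36 pairs of the 9 tested genes (both axes), on a scale from -1 (blue) to 1 (red). Foxa1, Sox2 and Etv5 form a red block (0.919 to 0.961), and Sox11 is blue against each of them (-0.951 to -0.881).

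Among 11523 tested genes of average log2 CPM of at least 2, the 3 most like Etv5 were Gca, Dusp6 and Ccdc14 (r of 0.997, 0.996 and 0.996). Dusp6 encodes an ERK phosphatase that FGF signalling induces. The genes most like Sox2 were Ccdc163, Abhd8 and Ephb3 (0.996, 0.996 and 0.995), those most like Foxa1 were Tmem80, Apold1 and Neil3 (0.995, 0.992 and 0.99), and those most like Sox11 were Scrt2, Fkbp4 and Mrpl19 (0.993, 0.991 and 0.989). Scrt2, a neural zinc finger repressor gene, stood at 10.6, 9.83 and 3.40 CPM with hairpins 1, 2 and 5, against 2.45, 3.84 and 5.47 CPM in the controls. Values over 0.95 were common, with 140 genes for Sox2, 130 for Etv5, 76 for Sox11 and 61 for Foxa1, so high r in 6 libraries is not particular to the genes named.

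The starts of Foxa1, Sox2, Etv5 and Sox11 are shown. These 4 genes varied together or against each other and lay on 1 side of all controls with both hairpins 1 and 2. Sox4, which varied with Sox11 (r of 0.841), also lay above all controls with both hairpins, and its start is not printed. In each case 250 bases before the most upstream RefSeq start are printed (GRCm38.p6), 5′ to 3′ on the gene's strand. The windows are chr12:57546112-57546361 on the minus strand for Foxa1, chr3:34649745-34649994 on the plus strand for Sox2, chr16:22439571-22439820 on the minus strand for Etv5 and chr12:27342719-27342968 on the minus strand for Sox11. Capitals mark CCAAT, the forkhead core TGTTTAC and the SOX-type site ACAAAG on either strand.
Foxa1: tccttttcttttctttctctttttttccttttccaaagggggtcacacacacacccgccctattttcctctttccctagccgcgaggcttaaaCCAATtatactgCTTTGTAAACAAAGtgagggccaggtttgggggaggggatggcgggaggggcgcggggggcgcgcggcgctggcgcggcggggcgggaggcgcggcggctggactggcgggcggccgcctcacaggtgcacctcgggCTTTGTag
Sox2: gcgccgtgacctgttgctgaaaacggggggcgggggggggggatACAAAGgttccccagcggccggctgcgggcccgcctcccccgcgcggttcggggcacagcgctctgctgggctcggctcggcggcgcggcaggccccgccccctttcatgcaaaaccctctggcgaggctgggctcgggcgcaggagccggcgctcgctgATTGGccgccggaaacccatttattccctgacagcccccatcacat
Etv5: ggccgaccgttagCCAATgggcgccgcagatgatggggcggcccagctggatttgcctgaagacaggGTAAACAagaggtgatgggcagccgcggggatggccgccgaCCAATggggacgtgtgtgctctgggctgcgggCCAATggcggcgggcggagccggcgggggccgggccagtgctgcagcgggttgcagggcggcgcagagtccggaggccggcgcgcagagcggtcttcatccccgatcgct
Sox11: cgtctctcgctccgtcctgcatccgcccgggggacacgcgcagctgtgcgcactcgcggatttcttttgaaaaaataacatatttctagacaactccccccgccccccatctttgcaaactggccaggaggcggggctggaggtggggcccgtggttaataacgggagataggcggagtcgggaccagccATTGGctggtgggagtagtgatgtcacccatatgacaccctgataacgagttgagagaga

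CCAAT was in 7 of the 8 windows used here (Gata6 and Sox9 were not analysed), against 33.8% of the 32851 windows of all genes. TGTTTAC was in 2 of 8, Foxa1 and Etv5, against 3.17% of all windows. In Foxa1 it overlaps a pair of ACAAAG sites on opposite strands, in 1 run of capitals. ACAAAG was in 2 of 8, Foxa1 and Sox2, against 16.5% of windows. The cAMP response element TGACGTCA, which CREB binds and CBP is recruited to, was in 0 of 8 windows against 1.55%, and its core TGACG was in 0 of 8 against 17.8%. The GC box GGGCGG was in 5 of 8 windows against 32.7%, and the ETS site CCGGAAG was in 0 of 8 against 6.91%. The motifs were searched on both strands and chosen after the sequences were seen. Matches are descriptions of these windows.

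Other SOX genes put the 4 SOX members in context. Of 15 further SOX genes 8 were tested, and 0 were called in shCrebbp against control in edgeR. Single hairpins gave 1 lower and 3 higher with hairpin 1, 2 lower and 2 higher with hairpin 2, and 1 lower with hairpin 5, where 17.9%, 17.5% and 2.75% of all tested genes were called. At the level per length, Sox1, a neural SOX gene of the same group as Sox2, was above every SOX member in every library. It stood at 98.8, 95.8 and 91.7 CPM per kb with hairpins 1, 2 and 5, against 73.2, 78.6 and 82.1 CPM per kb in the controls. All hairpin libraries lay above all controls (edgeR log2 fold change 0.29 ± 0.08, adjusted p = 0.117), as did 11.4% of tested genes. Sox2 made up 8.53%, 11.8% and 19.7% of the summed SOX level per length with hairpins 1, 2 and 5, against 22.9%, 21.4% and 18.7% in shEmpty, shEmpty-2 and shNS. Sox13, a SOXD gene, fell with hairpins 1 and 2 (log2 fold change -0.75 and -0.36, edgeR adjusted p = 0.00334 and 0.0438) and had -0.34 with hairpin 5 (adjusted p = 0.126). Sox12, the third SOXC gene, stood at 133 ± 12.1 CPM in shCrebbp and 118 ± 8.68 CPM in controls (SD, n = 3 each, edgeR adjusted p = 0.424). Sox10, Sox14, Sox17 and Sox30 had 0 reads in all libraries.

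**Figure D4:**
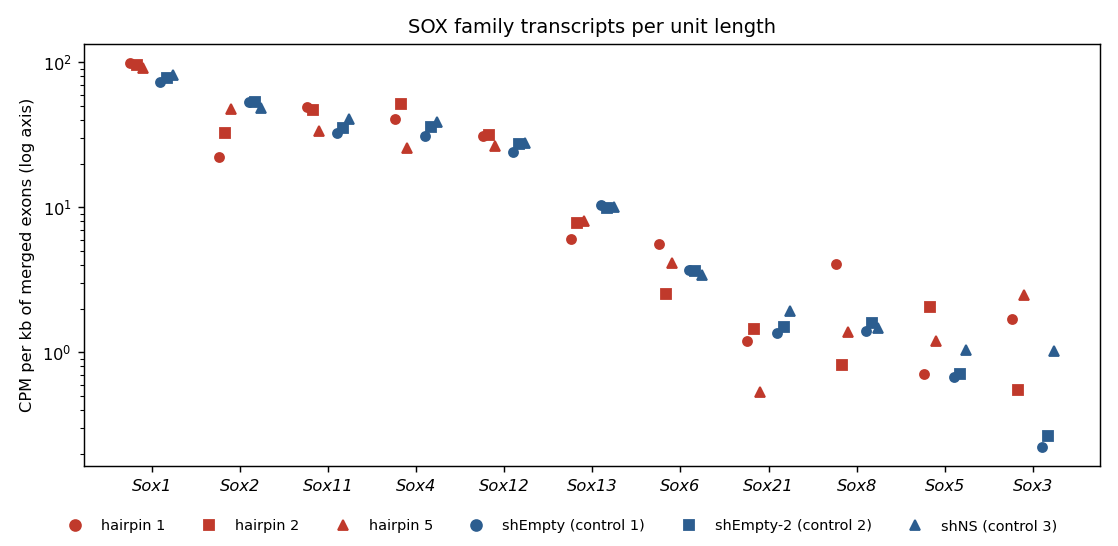
CPM per kb of merged exons (y axis, log axis) for the 11 SOX genes of highest level in controls, in the 3 shCrebbp libraries (red, left of each gene) and the 3 control libraries (blue, right). Sox1 is at 73.2 to 98.8 CPM per kb in all libraries, and Sox2 spreads from 22.3 CPM per kb with hairpin 1 to 53.3 CPM per kb in shEmpty.

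Of 32 other endoderm and lung transcription factor genes 19 were tested, with 0 called, 6 positive and 13 negative, and a median log2 fold change of -0.15. The most abundant were Id2 at 471 ± 53.6 CPM in shCrebbp and 417 ± 8.91 CPM in controls, and Foxp1 at 336 ± 13.2 and 326 ± 12.4 CPM (SD, n = 3 each). Nfib (edgeR adjusted p = 0.327) and Irx2 (adjusted p = 0.705) also missed the threshold. Hnf4a, Gata4 and Foxa3 were under 1 CPM on average. Cdx2, an intestinal factor gene, stood at 1.84, 0.214 and 0.34 CPM with hairpins 1, 2 and 5, against 0, 0.122 and 0 CPM in shEmpty, shEmpty-2 and shNS, and was not tested. In the single hairpin comparison, 7 were lower and 4 higher with hairpin 1 (9.32% and 8.61% of all tested genes) and 4 lower and 2 higher with hairpin 2 (9.03% and 8.48%). Hairpin 5 gave 0 calls in edgeR, against 2.75% of all genes.

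Of 18 lung epithelial genes that NKX2-1 and FOXA factors are known to activate or that mark their cells, 7 were tested and 11 were under 1 CPM on average. Muc1, a membrane mucin gene, was the 1 call of the 7 in shCrebbp against control, against 1.25% of all tested genes. It stood at 6.03, 7.34 and 6.74 CPM with hairpins 1, 2 and 5, against 25, 23.1 and 19.1 CPM in the controls (edgeR log2 fold change -1.74 ± 0.16, adjusted p = 0.00593; 0.0512 without shEmpty and 0.0678 without shEmpty-2, within 3.96e-16 to 0.0678 over all alternatives). It fell with each of hairpins 1, 2 and 5 (edgeR adjusted p = 0.00140, 0.00192 and 0.00737). Abca3, a lipid transporter of alveolar type 2 cells, stood at 69.7 ± 1.01 CPM in shCrebbp and 75.2 ± 2.71 CPM in controls (SD, n = 3 each, edgeR adjusted p = 0.532). Of the 7, 3 fold changes were positive and 4 negative. Lpcat1, Lmo3 and Selenbp1 had log2 fold changes of 0.14, 0.37 and 0.07 (edgeR adjusted p = 0.692, 0.545 and 0.957). The surfactant gene Sftpc and Ager, a receptor gene of alveolar type 1 cells, had -1.61 and -0.38 (edgeR adjusted p = 0.144 and 0.609), and Sftpc, at 0.272 to 0.855 CPM in shCrebbp and 1.31 to 2.76 CPM in controls, lay below all controls with every hairpin.

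Etv5 was read beside 17 genes of FGF signalling and its PEA3 relatives. Of these 15 were tested and 0 called in shCrebbp against control in edgeR, with 7 positive and 8 negative fold changes and a median log2 fold change of -0.15. Single hairpins gave 3 lower and 4 higher with hairpin 1, 7 lower and 1 higher with hairpin 2, and 3 lower and 1 higher with hairpin 5. Over all tested genes the shares were 9.32% lower and 8.61% higher with hairpin 1, 9.03% and 8.48% with hairpin 2, and 1.88% and 0.866% with hairpin 5. Dusp6 stood at 66.1, 82.9 and 127 CPM with hairpins 1, 2 and 5, against 153, 133 and 119.9 CPM in the controls, the order seen for Etv5. Dusp6 fell with hairpins 1 and 2 (log2 fold change -1.03 and -0.71, edgeR adjusted p = 0.00254 and 0.0100) and had -0.10 with hairpin 5 (adjusted p = 0.731). Etv1, a PEA3 relative, fell with hairpins 1 and 2 (-1.44 and -0.78, adjusted p = 0.00131 and 0.00937) and had 0.23 with hairpin 5 (adjusted p = 0.385). Etv4, the remaining PEA3 gene, named here after its values were seen, was at 6.39, 9.76 and 10.5 CPM with hairpins 1, 2 and 5, against 21.5, 18.4 and 15.0 CPM in the controls. It was below every control with all 3 hairpins (edgeR log2 fold change -1.04 ± 0.22, adjusted p = 0.0669 pooled), as were 11% of tested genes. Spred1, Il17rd and Fgfr3, also named after their values were seen, stood higher with hairpin 1 (edgeR log2 fold change 1.56, 0.93 and 0.90). They had 0.07, -0.80 and 0.37 with hairpin 2, and -0.09, -0.30 and 0.66 with hairpin 5. Egr1, an immediate early gene, rose with hairpins 1 and 5 (0.65 and 0.57, adjusted p = 0.00157 and 0.0115) and had -0.15 with hairpin 2 (adjusted p = 0.233). Spry2, an inhibitor of receptor kinase signalling, fell with hairpin 2 (-0.57, adjusted p = 0.0158).

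**Figure D5:**
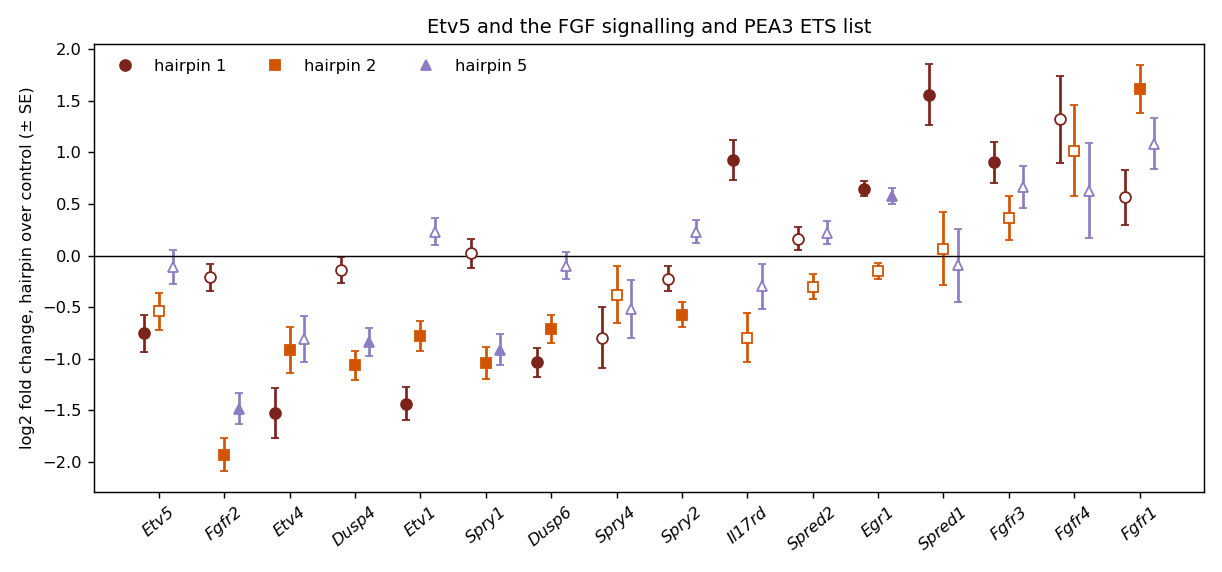
Log2 fold change over the 3 controls (y axis, error bars are SE) of Etv5 and the 15 tested genes of the FGF signalling and PEA3 ETS list, ordered by their mean, with hairpin 1 (circles), hairpin 2 (squares) and hairpin 5 (triangles). Filled symbols have an adjusted p under 0.05. Dusp6 and Etv1 repeat the order of Etv5, with hairpin 1 lowest and hairpin 5 nearest to the controls or above them.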

How the data were processed

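Poly(A) RNA-seq libraries of preSC cells were made with a NEBNext Ultra kit, per the labels' protocols. Tools named in the submitters' processing notes are HTSeq 0.6.1, TopHat2 2.0.12 and bcl2fastq 1.8.2, with the build mm9. Annotation and strand setting were not given in the sources used here, so a gene cannot be told from an overlapping antisense gene. Each library has 1 deposited file of raw counts by gene symbol. The 5 HTSeq summary rows (24.8% to 28.9% of counts) were left out.

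The main test was edgeR 4.0.16 run in R 4.3.3 (TMM, filterByExpr, robust quasi-likelihood test), with Benjamini-Hochberg adjustment over 13390 genes, a threshold of 0.05 and no covariate. SEs were taken from the F statistic, and intervals from its degrees of freedom. Log2 CPM used a prior count of 2. Chi-square per degree of freedom was 4.08 to 10.9 between control libraries and 20.4 to 28.4 between shCrebbp libraries, beyond sampling noise in both groups. Among shCrebbp libraries it includes differences between hairpins. DESeq2 1.42.0, limma-voom (limma 3.58.1), other normalizations and filters, thinning and leaving out each library were alternatives. Single hairpin fits, DESeq2 with 1 library left out and thinning were added after seeing the data. The edgeR step was tested on simulated data.

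The members and lists were chosen with earlier results of these data known. Named were all members, Crebbp, called list genes, up to 4 further genes per list by CPM, and the 3 genes most like a member, not all of which are discussed. Etv4, Spred1, Il17rd, Fgfr3, Calca, Dcn, Sftpc, Ager, Cdx2, Aldh1a1, Emp2, Rsph1 and the other neuroendocrine markers were named after their values were seen. So were the genes named as under 1 CPM or at 0 reads. Lengths came from GENCODE M21 (GRCm38), which matched 20882 of 23284 names (89.7%), and promoter sequences from RefSeq (GRCm38.p6). Some items are not reported here. Counting floors and intervals cover counting error only.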

Additional observations from a re-analysis of the deposited data

How the results depend on the processing

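The 9 tested genes stayed uncalled in shCrebbp against control under every alternative that kept all 6 libraries. With 1 library left out the count ranged from 0 to 1 in edgeR (Sox2 without hairpin 5) and from 0 to 4 in DESeq2 (Foxa1, Sox2, Etv5 and Sox11 without hairpin 5, at adjusted p of 0.00221, 1.93e-05, 0.0368 and 0.0259). Over all genes, edgeR called 168, DESeq2 730, and edgeR with 1 library left out 0 to 389. The 0 arose without shEmpty or without shEmpty-2, where 1332 and 1238 genes had an unadjusted p under 0.05 and DESeq2 called 252 and 220. DESeq2 called 480 without shNS, and 878, 623 and 1085 without hairpins 1, 2 and 5.

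Signs near 0 were not stable. Nkx2-1 had a log2 fold change of -0.0056 without a filter and -0.0035 after thinning. With 1 library left out, edgeR gave -0.074 to 0.040 for Nkx2-1, -0.15 to 0.099 for Foxa2, -0.70 to 0.18 for Hopx and -0.087 to 0.38 for Sox4. DESeq2 gave -0.029 without shEmpty and -0.077 without hairpin 1 for Nkx2-1, 0.098 without hairpin 2 for Foxa2, 0.18 without hairpin 1 for Hopx and -0.088 without hairpin 2 for Sox4. The Foxa1 minus Foxa2 difference ranged from -0.45 to 0.085. In each case the sign turned without 1 hairpin (hairpin 1 for Nkx2-1, Hopx and the forkhead ratio, hairpin 2 for Foxa2 and Sox4) and, for Nkx2-1, also without shEmpty. The order per length was the same with the longest transcript as length and without TMM factors.

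In the single hairpin fits, genes called with a control left out ranged from 920 to 4207 for hairpin 1 (2401 with all), from 930 to 4559 for hairpin 2 (2344) and from 50 to 1932 for hairpin 5 (368). Members called ranged from 2 to 6, 1 to 6 and 0 to 3. DESeq2 called 1310 and 1327 genes for hairpins 1 and 2, and 3 members for hairpin 1. The cause of these shifts was not tested. No paired analysis was possible because the labels give no replicate numbers shared between the groups. Depth limits Hopx and Sox9, with 64 and 6 reads at most in a library.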

Other observations

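Genes of the fixed lists, chosen here after their values were seen and mostly not described above, moved with more than 1 hairpin. Cebpa and Foxm1 were lower with hairpins 1 and 2 (edgeR log2 fold change -0.49 and -0.88 for Cebpa, -0.36 and -0.57 for Foxm1). With hairpin 5 they had -0.15 and 0.06, and both missed the threshold pooled (edgeR adjusted p = 0.204 and 0.421). Tbx2, a T-box factor gene of lung mesenchyme, stood at 9.85, 4.63 and 3.61 CPM with hairpins 1, 2 and 5, against 0.46, 1.40 and 1.39 CPM in shEmpty, shEmpty-2 and shNS. It rose with hairpins 1 and 2 (edgeR log2 fold change 3.23 and 2.15, adjusted p = 0.00177 and 0.0139) and missed the threshold with hairpin 5 (1.79, adjusted p = 0.0840) and pooled (2.50, adjusted p = 0.0674). Irx1, an Iroquois factor gene of lung epithelium, stood at 5.22, 18.3 and 5.17 CPM with the hairpins, against 2.66, 3.05 and 3.07 CPM in the controls (pooled log2 fold change 1.71, edgeR adjusted p = 0.144).

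No FGF receptor gene was called in shCrebbp against control in edgeR, where the adjusted p was 0.228 for Fgfr2, 0.110 for Fgfr1, 0.160 for Fgfr3 and 0.199 for Fgfr4. Fgfr1, Fgfr3 and Fgfr4 lay above every control in all hairpin libraries, as did 11.4% of tested genes. Fgfr4 was low, at 1.09 to 1.76 CPM in shCrebbp and 0.51 to 0.87 CPM in controls. Fgfr2, whose epithelial isoform receives the branching signal in lung, stood at 22.6, 6.84 and 9.32 CPM with hairpins 1, 2 and 5, against 27.5, 25.6 and 25.2 CPM in the controls. It fell with hairpins 2 and 5 (edgeR log2 fold change -1.93 and -1.49, adjusted p = 0.000348 and 0.00399). Fgfr1 stood at 4.41, 9.12 and 6.33 CPM, against 2.50, 3.29 and 3.21 CPM in the controls, and rose with hairpin 2 (log2 fold change 1.61, edgeR adjusted p = 0.00292). Spry1 and Dusp4, genes of feedback inhibitors, fell with hairpins 2 (-1.05 and -1.07, adjusted p = 0.00338 and 0.00198) and 5 (-0.91 and -0.84, adjusted p = 0.0215 and 0.0198) and had 0.02 and -0.14 with hairpin 1 (edgeR adjusted p = 0.931 and 0.486).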
